A study of Rattus norvegicus with 16 samples.

Results

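Among 31099 rows of an expression table from rat humerus shaft, 200 rows were chosen that differed little between cortical bone and bone with marrow and that moved most in cortical bone under excess vitamin A. Male Sprague-Dawley rats aged 8 weeks ate pellets with 12 IU (control) or 1700 IU (excess) vitamin A per g for 8 days, the excess given as retinyl palmitate and retinyl acetate. There were 12 animals per diet, in cages of 3, and the labels do not tie arrays to cages. RNA came from the shaft without periosteum, growth plates and epiphyses, with marrow kept or vortexed out in cold saline. Tissue and diet together gave 4 groups, each of 4 Affymetrix arrays from different animals. The submitters' design text takes bone with marrow to stand mainly for marrow cells.

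Vitamin A acts largely through retinoic acid, which binds nuclear receptors that switch genes on or off at retinoic acid response elements. In bone, an excess is known to raise resorption by osteoclasts, to lower bone mass and to thin long bones in rats. Cortical bone without marrow is rich in osteocytes, the cells embedded in mineral, while marrow holds blood-forming cells, vessels and fat cells. A response shared by both kinds of sample would be seen in rows whose level depends little on how much marrow RNA a sample holds, and the rows described here were chosen for such levels.

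The rule kept rows whose mean over the 8 arrays of bone with marrow lay within 0.3 log2 units of the mean over the 8 arrays of cortical bone and whose mean over all 16 arrays was 6 or more. That left 7995 rows. The members were the 200 of them with the largest difference, in either direction, between excess vitamin A and control in cortical bone. Of these, 66 were higher under vitamin A in cortical bone and 134 lower, and they are called upward and downward rows by that sign alone. The split rested on cortical bone vitamin A array 1: chosen again without it, the rule gave 135 upward and 65 downward rows, and 93 of the 200 members remained. The sizes in cortical bone ran from 0.453 to 2.08 log2 units with a median of 0.552. These sizes chose the members and are a description. Just inside the limit stood row 8284, with a cortical bone difference of -0.453, and row 13497, with 0.453. Just outside stood row 7049, with -0.451, and row 1544, with 0.45.

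No row has a gene name. The identifier column follows the probe list of the array, whereas the values were sorted by another quantity: in a limma fit without trend, the absolute t statistic of the marrow diet contrast decreased from row to row in 0.998 of neighbours. Where 2 rows carried identifiers of 1 gene (4526 pairs), their levels over the 16 arrays had a median r of 0.0131. Rows are therefore given by their number, which marks 1 feature across the 16 arrays, and neither marker genes nor sequences could be attached to them. The labelled tissues could not be checked against marker genes for the same reason. The titles and the tissue field disagree for control array 1 of cortical bone and control array 1 of bone with marrow. Both were grouped by title, also in the fit whose order the rows follow. The results that differ without them are given beside the main values.

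Because the rows stand in that order, a row's number is also nearly its rank by evidence for a vitamin A effect in bone with marrow. The members lay between rows 336 and 31032 with a median of 14305. Of the 200, 8 stood among the first 1000 rows, which is 4% against 3.22% of the whole table.

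Averaged over the diets, the rows were tissue-neutral as the rule required, with tissue differences between -0.299 and 0.299 log2 units and a median of 0.02. Within each diet the tissues were less alike. For the downward rows, bone with marrow minus cortical bone had a median (log2) of -0.18 in control rats but 0.24 under vitamin A. The upward rows had medians of 0.10 in controls and -0.15 under vitamin A. These differences share the cortical bone arrays that chose the rows. The mean level of members lay between 6.01 and 12.8 with a median of 7.34, against 7.56 in the other 7795 rows within the limits.

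The question was whether the changes seen in cortical bone recurred in the separate arrays of bone with marrow, which took no part in the diet difference that chose the rows. Directions recurred in most members, but no single member passed the test. In bone with marrow, 179 of the 200 rows (89.5%) moved in the direction of cortical bone. The same held for 57.4% of all rows and for 63.2% of the other rows within the limits. The median change along the cortical bone direction was 0.26 log2 units, from 0.12 at the lower quartile to 0.39 at the upper, against 0.03 over all rows. None of the 200 was called in bone with marrow by limma at a Benjamini-Hochberg adjusted p under 0.05, where 0.389% of all rows were called. The smallest adjusted p was 0.155. At an unadjusted p under 0.05 there were 29 members (14.5%), all in the cortical bone direction, beside 7.23% of all rows past that limit in that direction. In 15 members (7.5%) the diets did not overlap in bone with marrow and differed in the cortical bone direction, beside 4.2% of all rows. Members share array-to-array variation and the tissue limit admits some kinds of row more readily, as described further on, so 179 rows are not 179 separate observations.

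**Figure D1:**
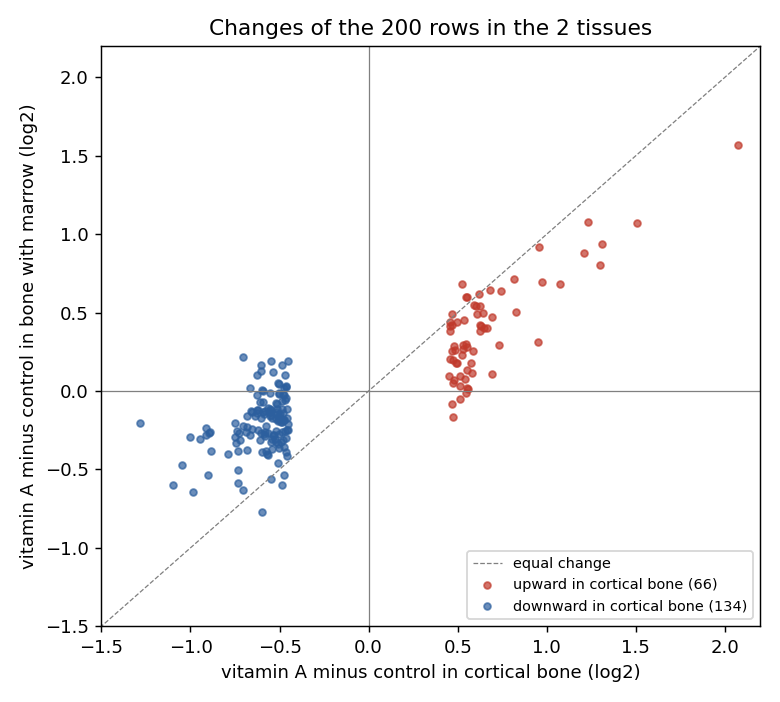
Vitamin A minus control in cortical bone (horizontal, log2) against the same difference in bone with marrow (vertical, log2) for the 200 rows, with 66 upward rows in red, 134 downward rows in blue and the line of equal change dashed. Most points lie in the quadrants of equal sign and closer to 0 vertically than horizontally; the empty band around 0 on the horizontal axis is made by the rule.

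Upward and downward rows differed in how far their counts in bone with marrow stood from the whole table. Among the 66 upward rows, 62 (93.9%) were also higher under vitamin A in bone with marrow, and the median change of the 66 was 0.39 log2 units. Of them, 23 (34.8%) had an unadjusted p under 0.05 and were higher, where 5.44% of all rows were. In 12 (18.2%) the 4 vitamin A arrays all stood above the 4 control arrays, beside 2.97% of all rows. Among the 134 downward rows, 117 (87.3%) were also lower, and the median change of the 134 was -0.20 log2 units. Of these, 6 (4.48%) passed the unadjusted limit, near the 3.82% of all rows that were lower at that limit. In 3 downward rows (2.24%) the groups did not overlap, where 3.1% of all rows had no overlap and were lower. The downward rows thus leaned one way while their counts past either limit stayed near those of the table as a whole. The difference between upward and downward rows was not tested.

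Sizes in bone with marrow were mostly smaller than in cortical bone. The median ratio of the marrow change to the cortical bone change was 0.61 in upward rows and 0.344 in downward rows. In 9 of the 200 rows the change in bone with marrow was in the same direction and larger. Rows picked for a large size in one tissue tend to have a smaller size in another, so the ratio is a description. The 95% interval of the marrow change held 0 in 171 rows, and it held the size seen in cortical bone in 167. Most rows could therefore be told apart neither from no change nor from a change as large as in cortical bone.

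The share with equal direction was greatest among the rows with the largest change in cortical bone. Of the first 50 members by size, 48 moved the same way in bone with marrow, with a median of 0.38 log2 units along the cortical bone direction. The next groups of 50 had 45, 44 and 42, with medians of 0.23, 0.18 and 0.19. Beyond the limit of membership, 86 of the rows ranked 201 to 300 moved the same way, 85 of those ranked 301 to 400, and 329 of the 400 rows ranked 401 to 800. Equal direction was thus as common just beyond the limit of membership as just within it (86% against 84%).

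The 3 upward rows with the smallest p in bone with marrow were 336, 369 and 419. Row 336 stood in bone with marrow at 7.57, 7.31, 7.77 and 7.20 in controls 1 to 4 and at 7.80, 8.28, 8.39 and 7.77 under vitamin A. Control array 3 and vitamin A array 4 nearly coincided, and control array 3 was slightly the higher. Its change there was 0.60 ± 0.16 (SE, limma adjusted p = 0.155). The limma adjusted p was 0.0382 with the replicate number as a block and 0.0345 with array weights. Over 27 alternatives it ran from 0.0345 to 0.962, the highest with both contradictory arrays placed by their tissue field. In cortical bone the row went from 7.68 ± 0.20 to 8.23 ± 0.15 (SD, n = 4). Row 369 stood at 7.94, 7.49, 7.53 and 7.23 in controls and at 8.64, 8.02, 7.96 and 8.41 under vitamin A, with no overlap and a change of 0.72 ± 0.19 (SE, limma adjusted p = 0.155). Control array 1, which carries the contradictory tissue field, was its highest control. Without that array the change was 0.85 and the limma adjusted p was 0.0292, the lowest over the alternatives. That fit called 692 rows of the table, against 121 in the main fit. The highest adjusted p was 0.962, with both contradictory arrays placed by their tissue field, where no row of the table was called.

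Row 419 was the most even in controls, at 5.75, 5.61, 5.79 and 5.61. Under vitamin A it stood at 6.79, 5.95, 6.03 and 6.72, where arrays 1 and 4 were well above 2 and 3. Its change was 0.68 ± 0.19 (SE, limma adjusted p = 0.177). In rows 369 and 419 vitamin A arrays 1 and 4 were the highest in bone with marrow, whereas in row 336 they were the lowest. Upward rows therefore did not share a single order of arrays.

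The 3 downward rows with the smallest p were 740, 940 and 1233. Row 740 stood in bone with marrow at 6.68, 6.07, 6.87 and 6.72 in controls and at 6.34, 5.90, 5.76 and 5.95 under vitamin A. Only control array 2 and vitamin A array 1 overlapped, and the change was -0.60 ± 0.19 (SE, limma adjusted p = 0.277). In cortical bone the same row went from 6.93 ± 0.14 to 5.83 ± 0.39 (SD, n = 4). Row 940 stood at 6.43, 6.55, 6.36 and 6.63 in controls and at 6.18, 6.08, 6.05 and 6.35 under vitamin A, without overlap by a narrow margin (change -0.33 ± 0.12 SE, limma adjusted p = 0.365). Row 1233 changed by -0.47 ± 0.18 (SE, limma adjusted p = 0.386), from 7.19 ± 0.24 to 6.71 ± 0.24 (SD, n = 4).

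**Figure D2:**
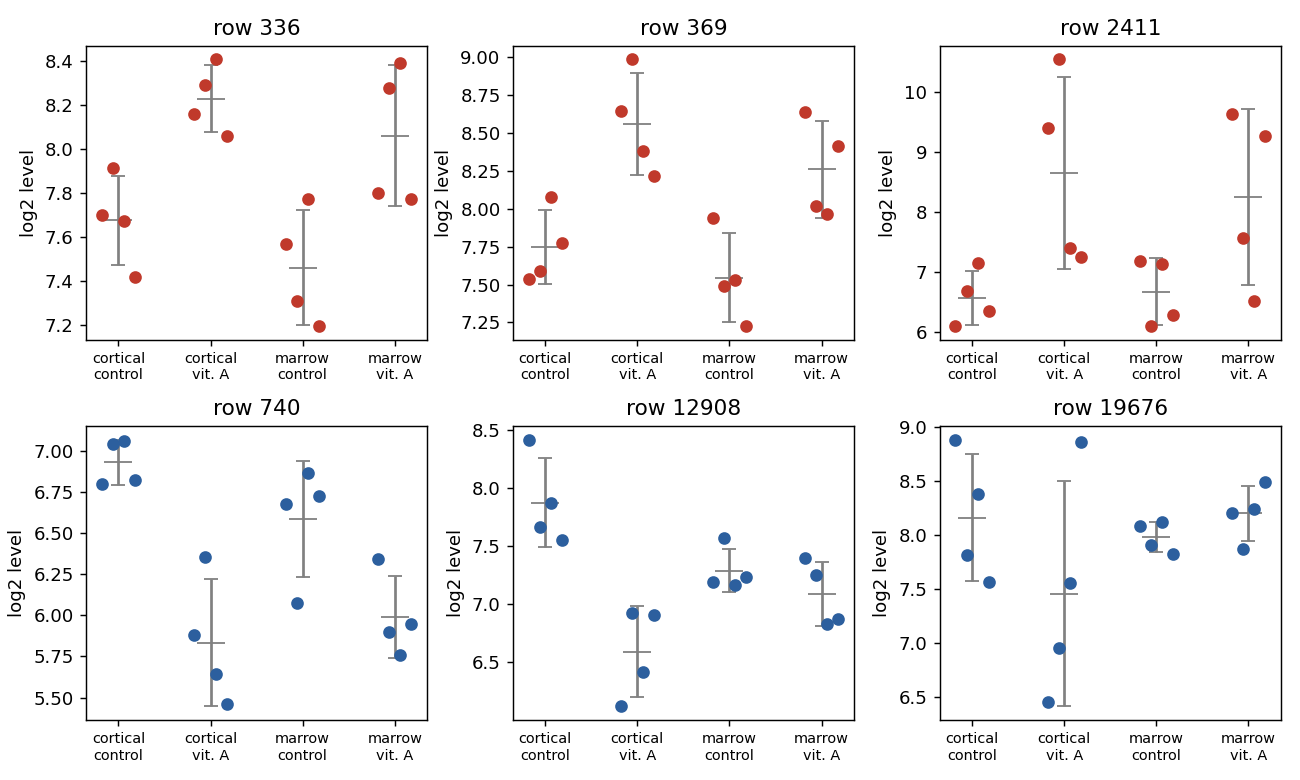
Log2 level of 6 rows in each array (points, in order of replicate number), with the mean and SD of each group of 4 in grey; "marrow" stands for bone with marrow. Rows 336, 369 and 740 were chosen for a small p in bone with marrow, rows 2411 and 12908 for the largest changes in cortical bone, and row 19676 for the largest change against the cortical bone direction.

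The 4 largest upward changes in cortical bone belonged to rows 2411, 1014, 778 and 4782. Row 2411 stood in cortical bone at 6.10, 6.69, 7.15 and 6.35 in controls and at 9.40, 10.5, 7.41 and 7.25 under vitamin A. Arrays 1 and 2 carried most of the difference of 2.08 log2 units. In bone with marrow it stood at 7.19, 6.11, 7.13 and 6.28 in controls and at 9.62, 7.57, 6.52 and 9.27 under vitamin A, a change of 1.57 ± 0.68 (SE, limma adjusted p = 0.492). Vitamin A array 3 lay within the controls, while arrays 1 and 4 lay more than 2 log2 units above all of them. Row 1014 stood in bone with marrow at 6.76, 6.59, 6.71 and 6.39 in controls and at 8.49, 7.37, 6.80 and 8.07 under vitamin A (change 1.07 ± 0.37 SE, limma adjusted p = 0.326). It did not overlap between the diets in either tissue.

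Row 778 went from 6.51 ± 0.33 to 7.45 ± 0.68 in bone with marrow (SD, n = 4, limma adjusted p = 0.272), also without overlap. Row 4782 went from 7.97 ± 0.17 to 8.77 ± 1.01 (SD, n = 4, limma adjusted p = 0.627), with vitamin A array 3 at 7.50, below every control. These 4 rows varied together within the groups of bone with marrow. Their 6 pairwise correlations over the 8 arrays, after the group means had been removed, lay between 0.807 and 0.973. Their large changes were thus close to 1 pattern seen 4 times, in which vitamin A arrays 1 and 4 were high and array 3 low.

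The 4 largest downward changes in cortical bone belonged to rows 12908, 740, 1233 and 16132. Row 12908 went in cortical bone from 7.88 ± 0.39 to 6.59 ± 0.39 (SD, n = 4). In bone with marrow it stood at 7.19, 7.57, 7.17 and 7.23 in controls and at 7.40, 7.25, 6.83 and 6.87 under vitamin A. There the groups overlapped and the change was -0.20 ± 0.21 (SE, limma adjusted p = 0.821). Its 95% interval did not reach the size in cortical bone, which had been chosen for being large. Row 16132 went from 10.6 ± 0.45 to 10.3 ± 0.67 in bone with marrow (SD, n = 4, limma adjusted p = 0.861). Over the 6 pairs of these rows, correlations in bone with marrow ran from -0.076 to 0.637, so the largest downward rows did not share a single pattern.

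Of the 200 members, 21 moved against the cortical bone direction in bone with marrow, 4 upward rows and 17 downward rows. The largest such changes were small. Row 19676 stood at 8.09, 7.91, 8.12 and 7.83 in controls and at 8.21, 7.87, 8.24 and 8.50 under vitamin A (change 0.22 ± 0.37 SE, limma adjusted p = 0.905). In cortical bone under vitamin A its arrays ranged from 6.45 to 8.87, and arrays 1 to 3 lay below every control while array 4 did not (mean difference -0.71). Rows 17288 and 21257 changed by 0.19 in bone with marrow, with limma adjusted p of 0.878 and 0.922. In both, cortical bone array 1 under vitamin A was far below the other 3, at 6.67 and 4.24.

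Members were rows with a wide spread between arrays of the same group. Their median SD within groups was 0.447 log2 units, against 0.157 in the other rows within the limits, and 0.482 in the downward rows. The median SE of the change in bone with marrow was 0.277 for members and 0.118 for those other rows. Choosing by the size of a difference admits rows of wide spread. In cortical bone, 7 of the 200 passed an adjusted p under 0.05 in limma, where 0.212% of all rows did, and the groups did not overlap in 42, where 3.36% of all rows had no overlap. Both counts come from the contrast that chose the rows, and nothing is read from them.

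**Figure D3:**
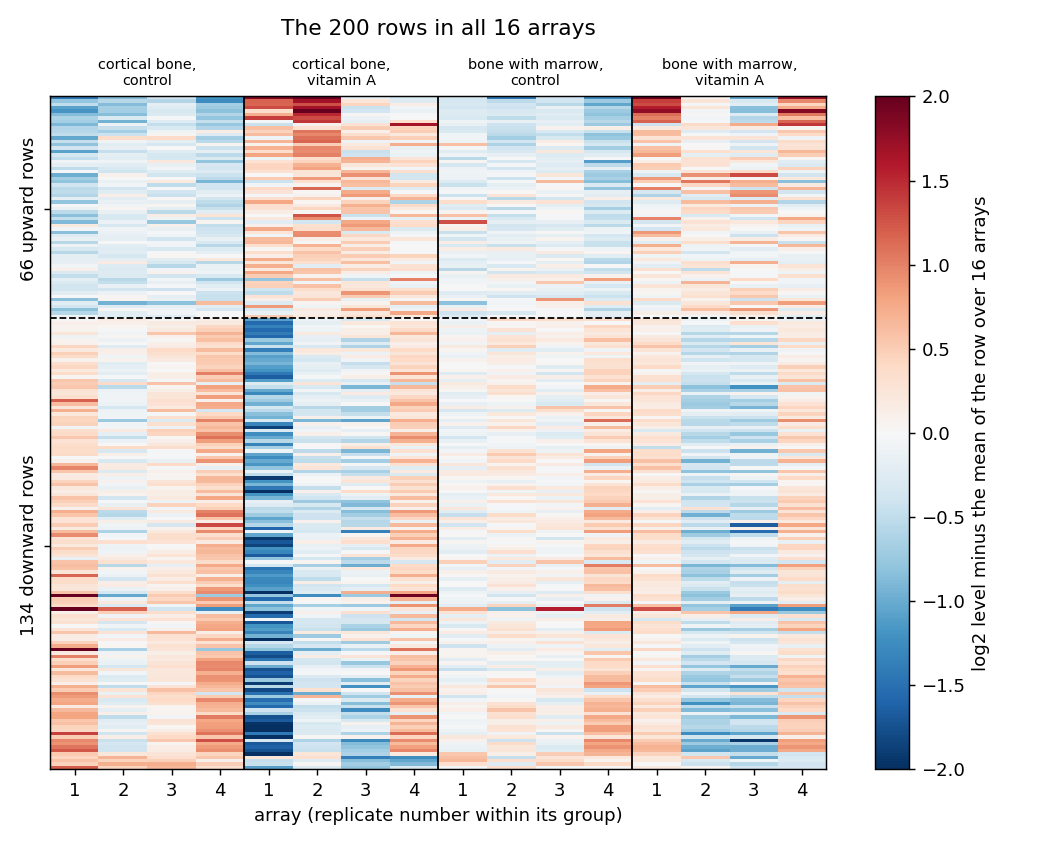
Level of each of the 200 rows (vertical, 66 upward rows above the dashed line and 134 downward rows below, in order of their cortical bone difference) in the 16 arrays (horizontal, 4 per group), as log2 units above (red) or below (blue) the mean of the row. Cortical bone array 1 under vitamin A is blue through most downward rows and array 4 is not, while in bone with marrow arrays 2 and 3 under vitamin A are the bluer ones.

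The downward rows moved together from array to array, also within groups of the same tissue and diet. In cortical bone the SD of their mean over arrays was 0.28 in controls and 0.61 under vitamin A. In bone with marrow it was 0.17 and 0.39. Whether diet had a part in this shared variation was not tested. The mean of the 134 downward rows in cortical bone was 8.21, 7.66, 7.92 and 8.27 in controls and 6.62, 7.51, 7.43 and 8.11 under vitamin A. Vitamin A array 1 was far below the rest and array 4 stood among the controls. Array 1 was the lowest of the 8 cortical bone arrays in 105 of the 134 rows. Without it, the median difference of the downward rows in cortical bone went from -0.55 to -0.29, and 31 of the 134 still reached the smallest size among members. Without each of the other 7 cortical bone arrays that number lay between 71 and 133.

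In bone with marrow, the mean of the downward rows was 7.71, 7.83, 7.74 and 8.09 in controls and 7.97, 7.28, 7.31 and 7.98 under vitamin A. Arrays 2 and 3 under vitamin A lay below all controls, whereas arrays 1 and 4 lay within them. Vitamin A array 2 was the lowest of the 8 arrays in 68 downward rows and array 3 in 47. Without array 2, 93 of the 134 downward rows were lower under vitamin A, with a median change of -0.08 over the 134, and without array 3 there were 109, with a median of -0.10. Without control array 4, there were 103, with a median of -0.10. In each of the 4 groups the array numbered 4 had the highest mean of the downward rows, and it was the highest of its group in 88, 112, 98 and 82 of the 134 rows, in the order cortical bone control and vitamin A, then bone with marrow control and vitamin A. The labels do not say whether a number marks a shared day or cage. Taking the number as a block in the fit could not alter the marrow changes, so the counts of equal direction were fixed there. In that fit 1 member, row 336, was called. It called 172 rows of the table, against 121 in the main fit.

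The mean of the 66 upward rows had a smaller spread within groups. In cortical bone it was 6.85, 7.06, 7.14 and 6.96 in controls and 7.66, 7.93, 7.59 and 7.48 under vitamin A. In bone with marrow it was 7.20, 7.09, 7.24 and 6.93 in controls and 7.64, 7.47, 7.40 and 7.55 under vitamin A. All 4 vitamin A arrays stood above all 4 controls there, with group means of 7.12 ± 0.14 and 7.52 ± 0.10 (SD, n = 4). No p is given for such a mean, since the rows were chosen with results known. With single arrays of bone with marrow left out, 59 to 63 of the 66 upward rows stayed higher under vitamin A, with medians from 0.27 to 0.40.

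**Figure D4:**
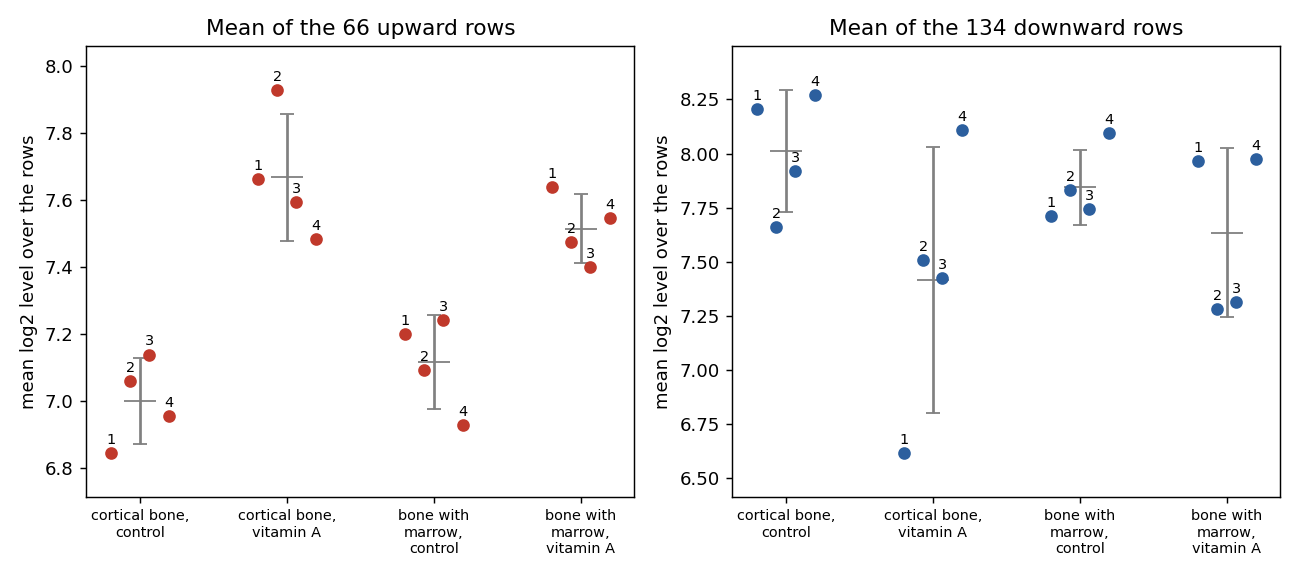
Mean log2 level over the 66 upward rows (left) and over the 134 downward rows (right) in each array, numbered by replicate, with the mean and SD of each group of 4 in grey; the 2 vertical axes differ and do not start at 0. In bone with marrow the upward rows separate the diets (6.93 to 7.24 against 7.40 to 7.64), while the downward rows place vitamin A arrays 1 and 4 among the controls.

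Pairs of downward rows had a median correlation of 0.702 over the 8 arrays of bone with marrow after the group means had been removed, and 40.1% of the 8911 pairs reached 0.8. Pairs of upward rows had a median of 0.039, with 11.4% of pairs at 0.8 or more. Pairs among the other rows within the limits had a median of 0.02 and 2.98%. In cortical bone, whose arrays chose the members, the medians were 0.717, 0.091 and 0.019 in the same order. The points of each correlation are arrays that share normalization, and pairs share rows, so these are descriptions. The 134 downward rows are therefore not separate measurements of the effect.

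**Figure D5:**
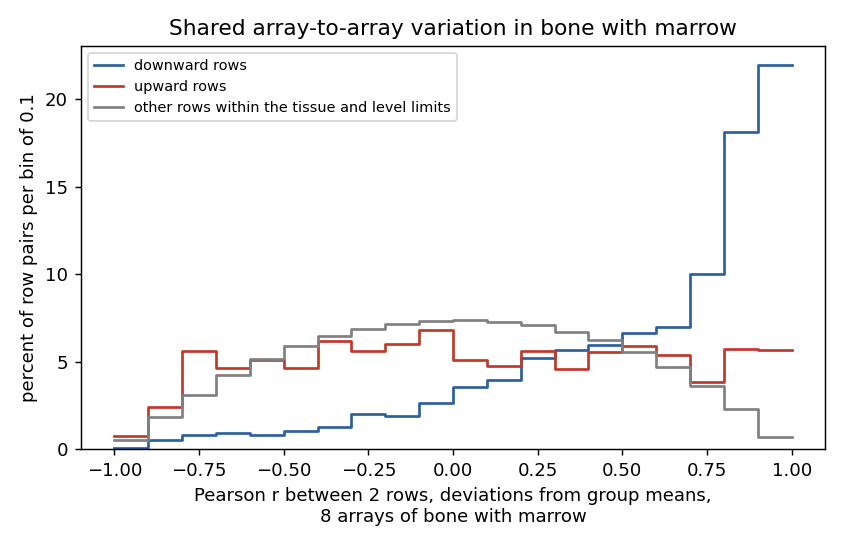
Distribution of Pearson's r between pairs of rows over the 8 arrays of bone with marrow, computed on deviations from the group means, for downward rows (blue), upward rows (red) and the other rows within the limits (grey), as percent of pairs per bin of 0.1. Downward rows pile up near 1, with 40.1% of pairs at 0.8 or more, against 2.98% in the grey curve.

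The array pattern of the downward rows was not limited to them. The mean of the downward rows served as the reference, so their own correlation with it is partly built in. Of the 134, 88 followed it at r of 0.8 or more within the groups of bone with marrow. So did 820 of the other 7795 rows within the limits (10.5%), and 413 ran against it at -0.8 or beyond. Among rows of the same minimum level that were higher with marrow by 0.3 log2 units or more, 326 of 4307 followed it (7.57%). In that class 233 ran against it at -0.8 or beyond. Among those higher in cortical bone by as much, 125 of 3377 followed it (3.7%) and 64 ran against it. Rows that followed it and rows that ran against it were therefore found on both sides of the tissue difference.

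How marrow-like each array was overall was set beside these results. In bulk samples fewer cells of a type and less RNA per cell cannot be told apart. Positions were measured along the line that joins the averages of both tissues, with each array left out of its own average, so that cortical bone is 0 and bone with marrow 1. On it, controls 1 to 4 of bone with marrow stood at 0.704, 1.33, 1.20 and 1.17, and vitamin A bone with marrow at 0.798 to 0.965. Controls 2 to 4 thus lay above every vitamin A array, and control 1 below all of them. The group means were 1.10 ± 0.27 in controls and 0.84 ± 0.08 under vitamin A (SD, n = 4). This difference was not tested. Arrays 1 to 4 under vitamin A had positions of 0.8, 0.798, 0.965 and 0.817. Their means of the downward rows were 7.97, 7.28, 7.31 and 7.98. The relation of position to those means was not tested. In the main fit, 62 upward and 117 downward rows moved the same way in bone with marrow, beside 57.4% of all rows. With the position as a covariate, 58 of the 66 upward rows and 100 of the 134 downward rows did, where the share over all rows was 51%. None was called, where 35 rows of the table were, and 18 of the 200 had an unadjusted p under 0.05. The share of all rows past that limit was not computed in this fit, so nothing is read from the 18.

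Control array 1 of bone with marrow, with the lowest position of its group (0.704), is 1 of the 2 arrays with contradictory labels. The other, control array 1 of cortical bone, stood at -0.036, within the range of the other cortical bone controls. With both such arrays left out, 182 of the 200 rows moved the same way, beside 58.7% of all rows. Row 369 alone of the members was called (change 0.85, limma adjusted p = 0.0351). That fit called 635 rows of the table, against 121 in the main fit. With both placed by their tissue field, no member was called, nor was any row of the table. That placement moves a cortical bone array that helped to choose the members into the contrast of bone with marrow, so its count of equal directions is not read.

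The tissue limit itself bears on how the recurrence can be read. A row with equal levels in both control groups and a large change in cortical bone alone would gain a tissue difference and could be left out, while a row that changed in both tissues would be kept. The 200 rows with the largest cortical bone difference at the same minimum level, without the tissue limit, shared 28 rows (14%) with the members. Of the 200 rows without the tissue limit, 160 (80%) moved the same way in bone with marrow, beside 57.4% of all rows. In limma 19 were called there, where 0.389% of all rows were. The diets did not overlap, in the cortical bone direction, in 41 (20.5%), beside 4.2% of all rows. The median size of the cortical bone difference was 0.891 log2 units in that list and 0.552 in the members. Members matched direction more often than the rows taken without the limit (179 against 160) but were called less often (0 against 19). The lists share rows and arrays, and neither difference was tested.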

How the data were processed

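The table holds the authors' log2 levels, 1 per probe set and array, and RMA, which subtracts background and equalises the arrays' distributions, is the tool named in the submitters' processing notes. Its version is not given in the sources used here. Array medians lay between 5.99 and 6.03, the highest correlation between 2 arrays was 0.994, and no value column was unmapped. The number of arrays limits the precision.

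Members and comparison lists were chosen with earlier results of these data known. All 31099 rows were fitted with limma 3.58.1 in R 4.3.3 (4 group means over 16 arrays, eBayes with trend, 12 residual degrees of freedom, two-sided, Benjamini-Hochberg over all rows, threshold 0.05). The diet contrast within bone with marrow is orthogonal to both quantities of the rule. Changes are vitamin A minus control. Intervals are at 95%. Named rows were the 3 with the smallest p in bone with marrow per direction (since fewer than 6 were called), the 4 largest per direction in cortical bone, the 3 largest against that direction, and those beside the limit. Rows 544, 9, 23, 67 and 71 were named after their values were seen. The fit was tested on simulated data. The labels do not say whether same-numbered arrays are paired, and their deviations from group means correlated between -0.128 and 0.446. Figures used matplotlib 3.10.9.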

Additional observations from a re-analysis of the deposited data

Results flagged for a closer look

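Of 88 groups of 4 arrays looked at, over the rows named above the means of upward and of downward rows and the difference of these means, 2 held 1 array far from the others, where chance would give about 4.4. Row 12908 was high in control array 2 of bone with marrow (7.57, against 7.17 to 7.23 in its group), a gap of 0.842 of the group's range. Row 8284 was low in control array 1 of the same tissue (6.60, against a lowest other value of 7.0), a gap of 0.866 of the range.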

How the results depend on the processing

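The count of members moving the same way and their median change kept their direction under each of the 43 alternatives. The placement by tissue field, which reuses an array that chose the members, is no independent check. Fits without a single cortical bone array, with another eBayes, with the marrow arrays alone, with the block or without low rows could not alter the marrow change of a member. They are no check on its direction. Of 513 values of named rows, 508 stayed on their side of the threshold with the same sign, and in those fits the sign was fixed. The count called in bone with marrow, 0 in the main fit, was 3 with array weights (rows 336, 369 and 544), where 852 rows of the table were called against 121. The count was 1 with both contradictory arrays left out (row 369), where 635 rows were called, and 1 with a replicate block (row 336). It was 3 with a tissue limit of 0.5 (rows 9, 23 and 71), 1 with 400 members and 1 with rows ranked by moderated t (row 67 in both), rows that are no members under the main rule. With single arrays left out, of the fit or of the choice of members, the count called lay between 0 and 1, the count moving the same way between 152 and 187, the median change between 0.14 and 0.32, and the count without overlap in the same direction between 8 and 27 (15 in the main fit). The count without overlap was 46 with rows ranked by moderated t. The cause was not tested where it is not given by the setting itself. Choosing again without cortical bone vitamin A array 1 kept 93 of the 200 rows and gave 135 upward rows. Whether replicate numbers pair the arrays is not given by the labels. Of the 4 same-numbered pairs in bone with marrow, 2 had deviations that correlated above 0.1, and 4 of 8 arrays correlated best with their own number. Arrays numbered 4 correlated in each of the 4 comparisons of groups, from 0.221 to 0.446. The block changed the count called over all rows from 121 to 172. Wide spread within groups limits what 4 arrays per group can show for these rows.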
